A study of Mus musculus with 12 samples.

Results

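Fdps, Insig1, Dhcr7, Mvk and Stard4, genes of cholesterol synthesis, sterol sensing and sterol transport, were read in cultured mouse aortic endothelial cells that carried or lacked the ETS transcription factors Ets1 and Ets2. They are 5 of the 11015 genes measured with a probe set of their own, and every probe set annotated to exactly one of these symbols was taken, 8 in all. The 5 genes were chosen on measured values: Fdps, Insig1, Dhcr7 and Mvk for lower expression in the arrays labelled DKO than in wild type, and Stard4 for lower expression in Ets2KO than in wild type. Those contrasts are therefore given as descriptions without a test. RNA was hybridised to Affymetrix mouse arrays, and values are log2 expression as deposited.

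The endothelial cells came from the aortas of 4-week-old mice and were grown in DMEM-F12 with 20% FBS, heparin and ECGS (endothelial cell growth supplement). The wild-type group (WT) was Ets1+/+; Ets2+/+ and received lentiviral-egfp, which marks infected cells with green fluorescent protein. Ets1KO was Ets1-/-; Ets2fl/fl and received the same lentiviral-egfp. Ets2KO was Ets1+/+; Ets2fl/fl and received lentiviral-egfp-Cre, whose recombinase deletes the floxed Ets2 alleles. The group labelled DKO, for double knockout, was Ets1-/-; Ets2fl/fl with lentiviral-egfp-Cre. Ets1KO is thus the control of the DKO group for the Cre virus, with the same genotype, whereas WT had no floxed alleles. No group had Cre without floxed Ets2, so an effect of Cre and loss of Ets2 cannot be told apart.

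Cholesterol is built from acetyl-CoA through mevalonate and farnesyl diphosphate to squalene, which is closed into lanosterol and then trimmed to cholesterol. When membrane sterol is low, SCAP carries the SREBP transcription factors from the endoplasmic reticulum to the Golgi, where proteases release an active fragment that turns on the synthesis genes. When sterol is high, INSIG proteins hold SCAP back and the genes are turned down. Cultured cells take up cholesterol from serum lipoproteins, and this pathway balances uptake against synthesis.

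Several facts of the series bear on these genes. The third column labelled DKO equals the mean of the other two in 20521 of 20523 probe sets, to a tolerance of 1e-05, so 11 arrays were used and DKO has 2. The median gene lay at 8.70 to 8.74 in these arrays, below the 9.37 to 9.50 of the 9 others. Comparisons that involve DKO are therefore stated relative to array medians, after subtraction of the median gene from every array. At their tested probe sets, the transcripts that check the labels did not bear out the DKO label. The tested Ets1 probe set was 1.31 lower in Ets1KO than in WT (log2, SE 0.23, limma adjusted p = 0.203), but after median centring it was 2.16 higher in the arrays labelled DKO than in Ets1KO (SE 0.25, adjusted p = 0.000726). On the deposited scale that difference was 1.41. The 3 other Ets1 probe sets gave 1.95, 0.84 and -0.74 in that comparison after median centring. Ets2 was 0.44 lower in Ets2KO than in WT (SE 0.38, adjusted p = 0.557), which did not pass. Relative to array medians, Ets2 was 1.32 higher in the arrays labelled DKO than in Ets2KO (SE 0.40, adjusted p = 0.0335), and it differed by 0.68 from Ets1KO (SE 0.40, adjusted p = 0.231). As deposited these Ets2 values were 0.62 (adjusted p = 0.256) and -0.07 (adjusted p = 0.906), so on neither scale was Ets2 called lower in DKO. No source used here places these probe sets against the exons that were removed. By Xist and Eif2s3y, WT replicate 1 and all 3 Ets2KO arrays read as male and all other arrays as female. Sample titles speak of biological replicates without saying whether separate animals were used, so p-values measure the spread between these samples, which may be technical.

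The start-site windows of the genes were read for known promoter motifs, since most of the 5 genes followed each other across arrays, as the values further on show. RefSeq windows on GRCm38, from 250 bases before to 50 bases after the start, were matched for 3 of the 5 genes, with 1 window each for Insig1 and Mvk and 3 for Dhcr7. The lines that follow show the windows that hold an NF-Y box, CCAAT on either strand, with the box in capitals (ATTGG where it lies on the other strand). NF-Y is a constitutive factor that works beside SREBP at many sterol-regulated promoters.
Insig1, chr5:28071162-28071461, plus strand: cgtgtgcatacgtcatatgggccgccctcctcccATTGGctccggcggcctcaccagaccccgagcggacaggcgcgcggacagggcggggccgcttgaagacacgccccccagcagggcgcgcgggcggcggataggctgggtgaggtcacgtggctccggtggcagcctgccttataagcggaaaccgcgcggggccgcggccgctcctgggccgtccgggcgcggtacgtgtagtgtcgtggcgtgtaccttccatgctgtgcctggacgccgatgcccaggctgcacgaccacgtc
Mvk, chr5:114444019-114444318, plus strand: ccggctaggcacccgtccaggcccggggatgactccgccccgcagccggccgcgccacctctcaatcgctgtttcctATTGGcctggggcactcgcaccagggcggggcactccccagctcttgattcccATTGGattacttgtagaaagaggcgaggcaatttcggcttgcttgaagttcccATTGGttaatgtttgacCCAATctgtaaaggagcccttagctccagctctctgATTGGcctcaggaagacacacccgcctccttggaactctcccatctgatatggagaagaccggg
Dhcr7, chr7:143829964-143830263, plus strand: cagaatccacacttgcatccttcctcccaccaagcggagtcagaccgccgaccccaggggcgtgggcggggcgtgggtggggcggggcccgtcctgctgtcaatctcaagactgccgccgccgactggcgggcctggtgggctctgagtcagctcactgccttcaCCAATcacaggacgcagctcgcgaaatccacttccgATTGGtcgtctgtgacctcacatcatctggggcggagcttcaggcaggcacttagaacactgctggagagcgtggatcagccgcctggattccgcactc
The Mvk window held 5 NF-Y boxes, the Dhcr7 window 2 and the Insig1 window 1. Of all 32851 RefSeq windows 37.4% held at least 1. Counted by gene, 41.1% of 27025 genes had a window with one, as did 13 of the 14 other cholesterol synthesis genes with a window. The Sp1 box GGGCGG, on either strand, was in all 3 windows shown, which were picked for their NF-Y box, and in 35.7% of all windows. Of the Dhcr7 windows not shown, the first held an Sp1 box and the second did not, and neither held an NF-Y box. Counted by gene, 38.2% had a window with an Sp1 box, as did 13 of the 14 other synthesis genes. The sterol response element TCACNCCAC was found in no window of these genes and in 1.24% of all windows. It was found for 1.44% of genes and for 1 of the 14 other synthesis genes, Hmgcs1. The ETS site CCGGAAGT was likewise found in no window of these genes, in 3.89% of all windows, for 4.31% of genes and for 0 of the 14 other synthesis genes. A missing match says only that these letters are not in the window.

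Mvk encodes mevalonate kinase, which phosphorylates mevalonate and commits it to the pathway. Its tested probe set read 8.79, 9.52 and 8.71 in WT, 8.80, 9.11 and 8.76 in Ets1KO, 8.07, 8.14 and 8.81 in Ets2KO, and 7.63 and 6.93 in the arrays labelled DKO. Ets2KO replicate 3 lay within the range of WT and of Ets1KO, whereas the other Ets2KO arrays lay below both groups. The second Mvk probe set read 8.63, 9.18 and 8.30 in WT, 8.63, 8.97 and 8.57 in Ets1KO, 8.11, 7.87 and 8.59 in Ets2KO, and 6.78 and 6.58 in DKO. It gave the same picture, with Ets2KO replicate 3 again among the controls.

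Fdps encodes farnesyl diphosphate synthase, which makes the last precursor shared by sterols and by the isoprenoid lipids that anchor small GTPases. It read 10.92, 11.84 and 11.03 in WT, 10.95, 12.03 and 10.90 in Ets1KO, 9.30, 9.56 and 9.78 in Ets2KO, and 8.76 and 6.87 in the arrays labelled DKO. Every Ets2KO array lay below every WT and Ets1KO array, and as deposited the DKO arrays lay lower still. Relative to array medians DKO replicate 1, at 0.02, lay within the Ets2KO range of -0.10 to 0.33. Over all genes, 14.1% were lower in Ets2KO than in WT without overlap, and 19% lower than in Ets1KO. The pair of DKO arrays stood far apart, with an SD of 1.34 against 0.24 to 0.64 in the other groups.

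Dhcr7 encodes 7-dehydrocholesterol reductase, the enzyme of the last step to cholesterol, which is mutated in Smith-Lemli-Opitz syndrome. It read 7.97, 8.63 and 8.84 in WT, 8.16, 8.37 and 7.42 in Ets1KO, 7.64, 8.01 and 8.55 in Ets2KO, and 6.37 and 5.70 in DKO. The WT, Ets1KO and Ets2KO ranges overlapped, and only the arrays labelled DKO stood below them.

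Insig1 encodes the endoplasmic reticulum protein that holds SCAP when sterol is high, and it is itself an SREBP target. It read 9.67, 10.48 and 10.79 in WT, 10.87, 10.86 and 9.39 in Ets1KO, 8.12, 8.43 and 9.43 in Ets2KO, and 7.76 and 7.64 in DKO. Ets2KO lay below WT without overlap, as it did for 14.1% of all genes, but Ets2KO replicate 3 lay just above Ets1KO replicate 3.

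Stard4 encodes a soluble START-domain protein that carries cholesterol between membranes inside the cell. Its tested probe set read 8.26, 9.15 and 8.91 in WT, 8.88, 8.89 and 8.01 in Ets1KO, 6.51, 6.89 and 7.08 in Ets2KO, and 7.65 and 7.18 in DKO. The second probe set read 8.21, 8.997 and 8.25 in WT, 8.52, 9.03 and 7.87 in Ets1KO, 6.31, 6.64 and 6.09 in Ets2KO, and 6.11 and 5.36 in DKO. The third probe set read 8.44, 9.39 and 8.30 in WT, 8.94, 9.31 and 8.16 in Ets1KO, 7.03, 7.10 and 7.22 in Ets2KO, and 7.27 and 6.58 in DKO. In all 3 probe sets Ets2KO lay below WT and Ets1KO without overlap, as it did for 14.1% of all genes against WT and 19% against Ets1KO.

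**Figure D1:**
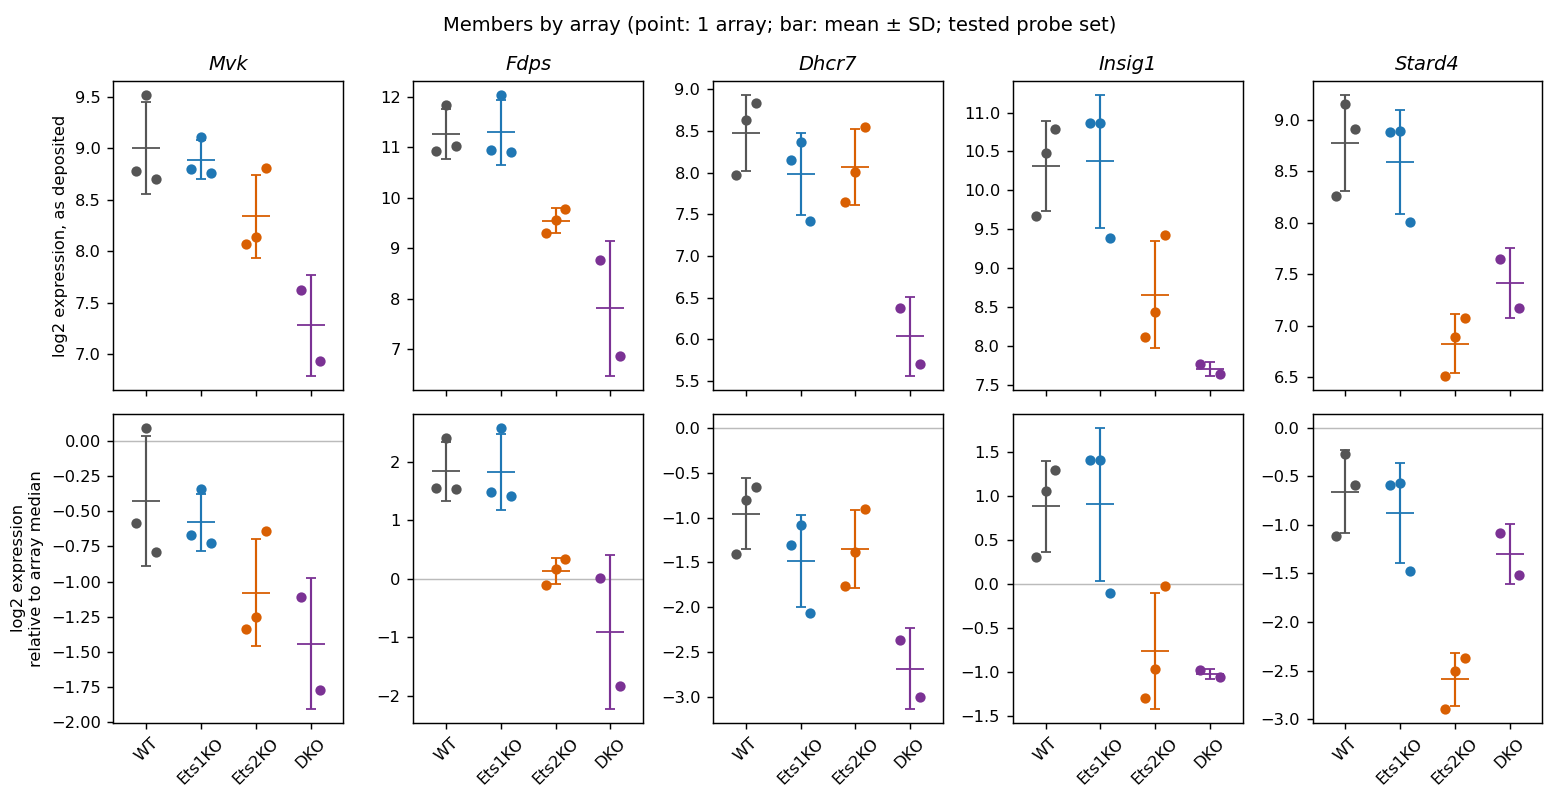
Log2 expression of the tested probe set of each of the 5 genes in WT, Ets1KO, Ets2KO and the arrays labelled DKO, as deposited (upper row) and relative to the median gene of each array (lower row). Points are arrays, horizontal bars are group means and vertical bars are the SD. Fdps and Stard4 in Ets2KO lie below all WT and Ets1KO arrays, while Dhcr7 in Ets2KO overlaps both.

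Relative to array medians, the order of the group means differed between the genes. For Fdps, WT at 1.83 and Ets1KO at 1.83 were followed by Ets2KO at 0.13 and DKO at -0.91. For Insig1 the order was Ets1KO at 0.90, WT at 0.88, Ets2KO at -0.76 and DKO at -1.02. For Mvk it was WT at -0.43, Ets1KO at -0.58, Ets2KO at -1.08 and DKO at -1.44, and for Dhcr7 it was WT at -0.95, Ets2KO at -1.35, Ets1KO at -1.49 and DKO at -2.68. Stard4 alone among the 5 had Ets2KO lowest, at -2.59, below DKO at -1.30, Ets1KO at -0.88 and WT at -0.66. On this scale the ranges of WT and Ets1KO overlapped for all 5 genes, and those of Ets2KO and DKO for Fdps, Insig1 and Mvk. Ets1KO and Ets2KO overlapped for Mvk and Dhcr7 and, by 1 array, for Insig1, and Ets1KO and DKO overlapped for Stard4.

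The contrasts on which the genes were chosen gave the following sizes. Between Ets2KO and WT the log2 difference was -1.95 for Stard4 (SE 0.31), with -2.14 and -1.60 in its other probe sets. Fdps differed by -1.71 (SE 0.49), Insig1 by -1.65 (SE 0.48), Mvk by -0.67 (SE 0.29) and Dhcr7 by -0.41 (SE 0.35). Over all genes 0.154% were called lower in that contrast. Between the arrays labelled DKO and WT, relative to array medians, Fdps differed by -2.74 (SE 0.55), Insig1 by -1.90 (SE 0.53), Dhcr7 by -1.73 (SE 0.37) and Mvk by -1.01 (SE 0.32). Stard4 differed by -0.65 there (SE 0.34), and its other probe sets by -2.04 and -1.08. Over all genes 11.9% were called lower in that contrast.

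The threshold that the choice used is described by the sterol genes on its sides, which is no test of the 5 genes. For Ets2KO against WT, Srebf2 (-0.99) and Stard4 (-1.95) lay inside, and Sqle (-1.75) and Msmo1 (-1.91) just outside. For DKO against WT, Insig1 (-1.90) and Mvk (-1.01) lay just inside, with Osbpl1a (0.83), and Erlin2 (0.65) and Ebp (-0.89) just outside. Further inside and not among the 5 genes, Srebf2, Scap, Scarb1, Hsd17b7 and Pmvk were lower, and Mbtps2 (1.15), Insig2 (1.69) and Npc2 (1.16) were higher.

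Whether Fdps, Insig1, Dhcr7 and Mvk also differed where Ets2 was deleted and Ets1 was present was asked by comparing Ets2KO with Ets1KO, groups that share no array with the contrast that chose them. None of the 4 passed the test. Fdps was 3.35-fold lower in Ets2KO, a log2 difference of -1.75 (SE 0.49, 95% interval -2.86 to -0.63, limma adjusted p = 0.0942), and its groups did not overlap. Insig1 was 3.28-fold lower, at -1.71 (SE 0.48, 95% interval -2.80 to -0.62, adjusted p = 0.0931), with overlapping groups. Mvk differed by -0.55 (SE 0.29, 95% interval -1.21 to 0.11, adjusted p = 0.298), and by -0.53 in its second probe set. Dhcr7 differed by 0.08 (SE 0.35, 95% interval -0.71 to 0.87, adjusted p = 0.916). With array weights, which let the arrays differ in their spread, Fdps (-2.14), Insig1 (-2.16) and Mvk (-0.84) passed. Calls rose at large with these weights, from 166 to 1724 of all 11015 genes called lower.

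In the same comparison Stard4, whose choice used the Ets2KO arrays, was 3.40-fold lower in Ets2KO, at -1.77 (SE 0.31, adjusted p = 0.0301). Its other probe sets gave -2.13 and -1.69, with adjusted p over all probe sets of 0.0265 and 0.0467. Stard4 was the only one of the 5 genes called lower, and 1.51% of all genes were. Nothing is read from that count, since the Ets2KO arrays had a part in the choice of Stard4. Fdps and Stard4 were lower without overlap between groups, as were 19% of all genes. The Stard4 difference lost its call when any of Ets1KO replicates 1 and 2 or any Ets2KO array was left out, at an adjusted p of up to 0.127, and its size stayed between -2.06 and -1.61. With sex as a covariate, whose effect is estimated within WT alone, it was -0.99 (adjusted p = 0.894). A block for the replicate number gave -1.77 (adjusted p = 0.0632), no longer called. Fdps passed, at -1.75, when either DKO array was left out of the fit, since these arrays enter its estimate of the spread, and was otherwise between -1.94 and -1.38. All Ets2KO arrays read as male and all Ets1KO arrays as female, so sex, the Cre virus, the Ets1 genotype and loss of Ets2 cannot be told apart here.

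Loss of Ets1 was read by comparing Ets1KO with WT, which shares the WT arrays with both contrasts that chose the genes. None of the 5 genes passed, and 0.00908% of all genes did, which is 1 of 11015, while 954 had an unadjusted p below 0.05. Fdps differed by 0.03 (SE 0.49, 95% interval -1.08 to 1.15, adjusted p = 0.992) and Insig1 by 0.06 (SE 0.48, 95% interval -1.03 to 1.15, adjusted p = 0.984). Mvk differed by -0.11 (SE 0.29, adjusted p = 0.937), Stard4 by -0.18 (SE 0.31, adjusted p = 0.901) and Dhcr7 by -0.49 (SE 0.35, 95% interval -1.28 to 0.30, adjusted p = 0.715). For Fdps and Insig1 the intervals reach changes of about 1 in either direction, so smaller effects were not resolved.

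The Cre virus in cells labelled Ets1-null was read by comparing the arrays labelled DKO with Ets1KO, which have the same genotype and all read as female. For Stard4 this comparison shares no array with the contrast that chose it. Its tested probe set differed by -0.43 relative to array medians (SE 0.34, 95% interval -1.19 to 0.34, adjusted p = 0.380), and did not pass. The second probe set gave -1.99, with adjusted p over all probe sets of 0.00513, and the third gave -1.13 (0.0599). As deposited the tested probe set gave -1.18 (adjusted p = 0.0228), where 42.5% of all genes were called lower. The call for Stard4 therefore depended on the probe set and on the scale.

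For the other 4 genes the comparison uses the DKO arrays that chose them, so the values are no independent test. Fdps was 6.64-fold lower, at -2.73 (SE 0.55, adjusted p = 0.00719), and stayed called without any one array, between -3.66 and -1.80. Insig1 was 3.78-fold lower, at -1.92 (SE 0.53, adjusted p = 0.0251), and Dhcr7 was 2.29-fold lower, at -1.20 (SE 0.37, adjusted p = 0.0408). Mvk was 1.82-fold lower, at -0.86 (SE 0.32, adjusted p = 0.0747), and its second probe set gave -1.29, with adjusted p over all probe sets of 0.00970. Of the 5 genes 3 were called lower and 0 higher, where 11.3% of all genes were called lower and 17.2% higher. As deposited all 5 were called lower, against the 42.5% given above. Insig1 lost its call without Ets1KO replicate 1 or 2 or either DKO array, and Dhcr7 without any of these arrays, WT replicate 2 or Ets2KO replicate 2. Both calls were also lost with only the 2 groups compared, and that of Dhcr7 with array weights and with all probe sets of each gene averaged. Dhcr7 has no second probe set, so in the averaged setting its value moved only with the median that was subtracted. Directions here rest on the arrays labelled DKO, whose tested Ets1 probe set went against that label.

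The groups with the Cre virus, which by label differ in Ets1, were set side by side by comparing the arrays labelled DKO with Ets2KO. Both groups were used in choosing the genes: Fdps, Insig1, Dhcr7 and Mvk for low values in DKO, and Stard4 for low values in Ets2KO. That choice favours a lower Dhcr7 and a higher Stard4 in DKO here. The values and p-values of the chosen genes below are therefore no independent test, whether or not a call was kept. At its tested probe set Ets1 was 1.21 higher in DKO here relative to array medians (adjusted p = 0.00808), against the labels. As deposited it was 0.51 higher (adjusted p = 0.128). The 3 other Ets1 probe sets gave 0.96, 0.73 and -0.76 relative to array medians, and 0.26, 0.03 and -1.46 as deposited. The comparison is thus one of these arrays and not of a known Ets1 status. Dhcr7 was 2.52-fold lower in DKO relative to array medians, at -1.33 (SE 0.37, adjusted p = 0.0264), and Stard4 was 2.44-fold higher, at 1.29 (SE 0.34, adjusted p = 0.0209). Over all genes 13.2% were called lower and 16.9% higher. The other Stard4 probe sets gave 0.09 and 0.50, and as deposited the tested one gave 0.59 (adjusted p = 0.199), so the call rests on 1 of 3 probe sets and on the scale. It was also lost without Ets2KO replicate 1 (1.13) or DKO replicate 1 (1.07). Dhcr7 was called on both scales, with -2.03 as deposited, where 4742 of all 11015 genes were called lower. Its call relative to array medians was lost without Ets2KO replicate 2 or 3 or DKO replicate 2. Fdps differed by -1.04 (SE 0.55, adjusted p = 0.181), Mvk by -0.36 (SE 0.32, adjusted p = 0.424) and Insig1 by -0.26 (SE 0.53, adjusted p = 0.738). Fdps passed at -1.97 without DKO replicate 1, and was -0.11 without DKO replicate 2. The Ets2KO arrays read as male and the DKO arrays as female, and with sex as a covariate neither Dhcr7 (-2.003, adjusted p = 0.111) nor Stard4 (0.60, adjusted p = 0.541) passed.

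**Figure D2:**
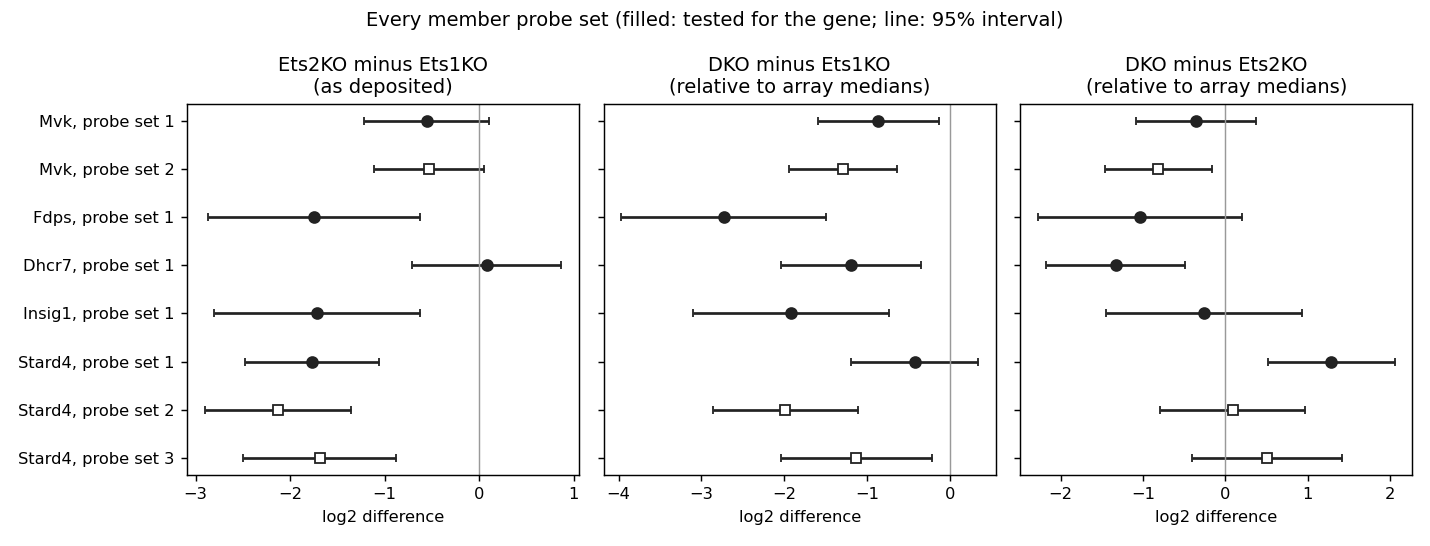
Log2 differences of all 8 probe sets of the 5 genes in 3 comparisons, with 95% intervals; filled circles mark the probe set tested for its gene and open squares the others. The 3 Stard4 probe sets lie together for Ets2KO against Ets1KO, at -1.77, -2.13 and -1.69, and apart wherever the arrays labelled DKO enter, at -0.43, -1.99 and -1.13 against Ets1KO.

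That disagreement between probe sets of a gene was general among sterol genes in comparisons with the arrays labelled DKO. Among the 19 sterol genes with more than 1 probe set, the median spread of their differences was 0.20 for Ets2KO against Ets1KO and 0.89 for DKO against Ets1KO. The spread exceeded 1 for 0 of the 19 genes in the former and for 8 in the latter. What part the lower level of the DKO arrays had in this was not tested.

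The difference between groups with and without the Cre virus was set side by side in the genotypes labelled Ets1+/+ and Ets1-/-, as a description, since both contrasts were used in choosing genes or share arrays with them. The tested Ets1 probe set of the DKO arrays went against their label, and Ets2 was not called lower in them. The second value of each pair therefore cannot be taken as loss of Ets2 in the absence of Ets1. For Stard4 the difference was -1.95 for Ets2KO against WT and -0.43 for DKO against Ets1KO. For Fdps it was -1.71 and -2.73, for Insig1 -1.65 and -1.92, for Mvk -0.67 and -0.86, and for Dhcr7 -0.41 and -1.20. These pairs of values were not tested against each other.

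The other steps of the pathway were read from lists of 44 genes, of which 38 had a probe set of their own, 33 besides the 5 genes. Of 18 measured synthesis genes, 17 were below 0 for Ets2KO against Ets1KO, with a median of -0.90 against -0.02 for all genes, and 52.6% of all genes were below 0. Called lower were 3, all between squalene and cholesterol: the squalene epoxidase Sqle (-1.66, adjusted p = 0.0410), the sterol C4-methyl oxidase Msmo1 (-1.87, adjusted p = 0.0440) and the sterol isomerase Ebp (-1.25, adjusted p = 0.0418). None was called higher. Ebp read 10.78 to 11.29 in Ets1KO, above the 9.88 to 10.37 of WT. Its Ets2KO range of 9.37 to 9.97 overlapped WT, so part of its difference lies in a high Ets1KO level. Dhcr7, which acts after Ebp in the pathway, was the gene above 0. Without the 3 synthesis enzymes among the 5 chosen genes, all 15 others were below 0, with a median of -0.92. Of the 6 mevalonate genes none was called, Fdps and the isomerase Idi1 (-1.46, adjusted p = 0.148) having the largest differences.

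Among the 10 sterol-sensing genes Srebf2, which encodes the SREBP that drives cholesterol synthesis, was the only one called for Ets2KO against Ets1KO. Its tested probe set read 10.57, 10.48 and 10.31 in Ets1KO and 9.35, 9.35 and 9.31 in Ets2KO, a difference of -1.12 (SE 0.14, adjusted p = 0.0119), and its second probe set gave -1.65. Ets2KO lay below Ets1KO without overlap in both. The related Srebf1 differed by 0.27, the escort Scap by 0.24 and Insig2, the partner of Insig1, by -0.17, and none of these 3 passed. Among the 10 genes of uptake and transport Stard4 was the only one called. The start-domain relative Stard5 gave -0.52 (adjusted p = 0.266) and the lysosomal cholesterol carrier Npc2 0.66 (adjusted p = 0.171).

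Over the 38 sterol genes 5 were called lower and 0 higher for Ets2KO against Ets1KO, where 1.51% of all genes were called lower and 1.43% higher. Without the 5 chosen genes, of which Stard4 was chosen on the Ets2KO arrays, 4 of 33 were called lower and 0 higher. The count of 5 fell to 0 without Ets1KO replicate 2, to 1 without Ets1KO replicate 1 or any 1 of the Ets2KO arrays, and to 2 without Ets1KO replicate 3. It was 0 with sex as a covariate and 18 with array weights, where 0 and 1724 of all genes were called lower. For Ets1KO against WT no sterol gene passed, and the synthesis genes had a median of -0.12.

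In the arrays labelled DKO, sterol genes were called in both directions, as were genes at large. Against Ets1KO, relative to array medians, 8 of the 38 sterol genes were called lower and 4 higher, where 11.3% of all genes were called lower and 17.2% higher. Fdps, Insig1 and Dhcr7 were chosen on the DKO arrays, and without the 5 chosen genes 5 of 33 were called lower and 4 higher. Besides Fdps, Insig1 and Dhcr7, the lower ones were the phosphomevalonate kinase Pmvk (-1.19, adjusted p = 0.0145), Ebp (-1.68, adjusted p = 0.00476), Srebf2 (-1.97, adjusted p = 0.000158), Scap (-1.30, adjusted p = 0.00671) and the HDL receptor Scarb1 (-1.60, adjusted p = 0.00306). The higher ones were Insig2 (1.62, adjusted p = 0.00848), the SREBP protease Mbtps2 (0.82, adjusted p = 0.00553), Npc2 (1.19, adjusted p = 0.0186) and the oxysterol-binding relative Osbpl9 (1.31, adjusted p = 0.00677). Insig1 and Insig2 thus moved in opposite directions on this scale, and as deposited Insig2 differed by 0.86. As deposited 19 were called lower and 0 higher, where 42.5% of all genes were called lower. The higher calls thus hold only relative to array medians. Without DKO replicate 2 there were 5 lower and 2 higher. Ebp, whose Ets1KO arrays lay above WT, differed by -0.89 between DKO and WT relative to array medians.

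Against Ets2KO, the arrays labelled DKO had 5 of the 38 sterol genes called lower and 5 higher, where 13.2% of all genes were called lower and 16.9% higher, so nothing particular to the sterol genes is read from these counts. Sqle was 1.96 higher (adjusted p = 0.00430) and the squalene synthase Fdft1 1.31 higher (adjusted p = 0.0157), with Insig2 at 1.73, Mbtps2 at 0.88 and Stard4 as given above. Dhcr7, Scap (-1.60), Scarb1 (-1.28), Srebf2 (-0.91) and the late-endosome transporter Stard3 (-0.82) were lower. The second Fdft1 probe set gave 0.10. Without DKO replicate 2 there were 9 higher, where 1172 of all genes were. As deposited 13 were lower and 2 higher, where 4742 of all genes were called lower and 333 higher.

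**Figure D3:**
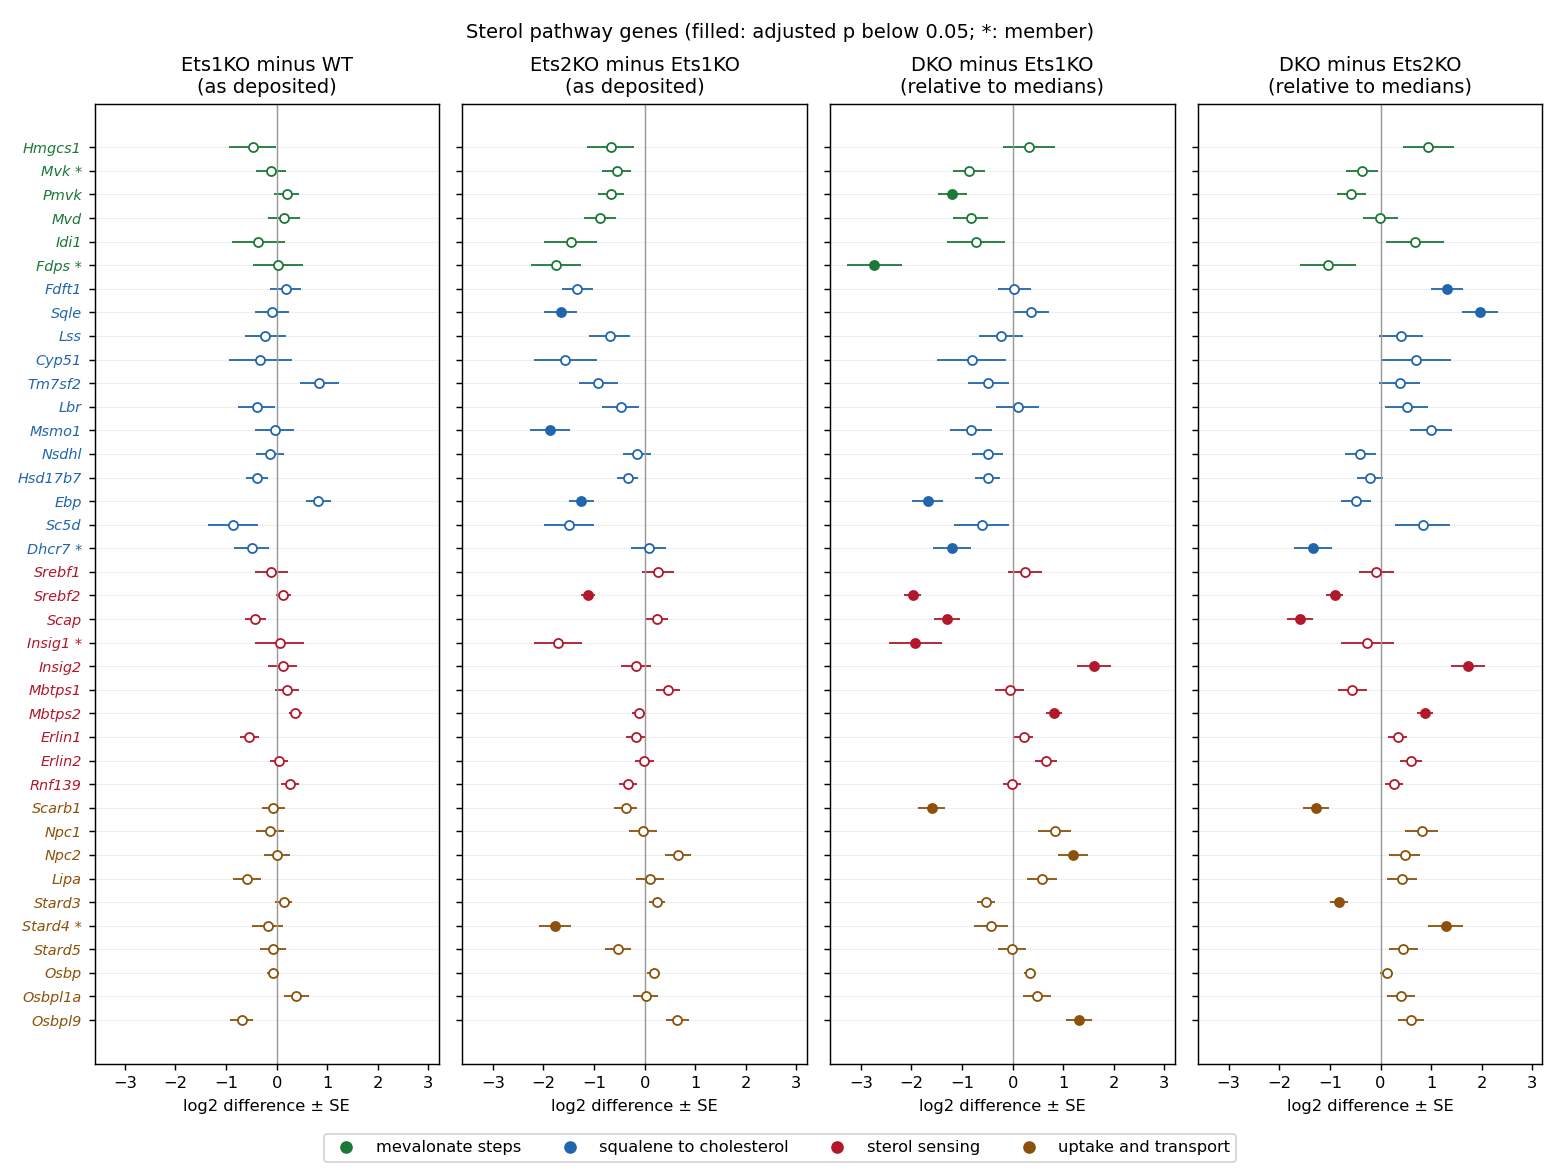
Log2 differences with their SE for the 38 measured sterol genes in 4 comparisons, grouped by role; filled points passed at adjusted p below 0.05 and asterisks mark Mvk, Fdps, Dhcr7, Insig1 and Stard4. For Ets2KO against Ets1KO, as deposited, 17 of 18 synthesis genes lie left of 0, as do 52.6% of all genes. For DKO against Ets2KO, relative to array medians, 8 of 18 do, as do 42.5% of all genes. The synthesis median for DKO against Ets2KO is 0.39 on that scale and -0.30 as deposited, so the 2 counts are not directly comparable.

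Neighbouring branches were read from lists as well. Of 10 fatty acid genes under SREBP, the desaturase Scd2 was the only one called for Ets2KO against Ets1KO (-1.24, adjusted p = 0.0377), with a list median of -0.62. For DKO against Ets1KO, relative to array medians, the fatty acid synthase Fasn was the only one called at its tested probe set (-1.78, adjusted p = 0.00297). In that comparison 11.3% of all genes were called lower and 17.2% higher. The probe sets of Scd2 disagreed there, with 0.16 at the tested one and -3.82 and -4.82 at the others (adjusted p over all probe sets 4.4e-05 and 0.000344). Of 7 genes that use the product of Fdps for prenylation, dolichol or ubiquinone, none passed for Ets2KO against Ets1KO, with Pdss2 at -0.55 (adjusted p = 0.191) and Fntb at -0.40 (adjusted p = 0.391). Relative to array medians, the farnesyltransferase subunit Fnta was 0.95 higher in DKO than in Ets1KO (adjusted p = 0.0286), where 17.2% of all genes were called higher. Of 5 measured genes of sterol efflux and its LXR regulators, none passed for Ets2KO against Ets1KO. The largest were Mylip, a ubiquitin ligase gene under LXR, at 0.61 (adjusted p = 0.168) and Nr1h3, which encodes LXR alpha, at 0.56 (adjusted p = 0.328). For DKO against Ets2KO, relative to array medians, Mylip was lower (-0.99, adjusted p = 0.0218), where 13.2% of all genes were called lower.

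The genes most like the 5 were found by Pearson correlation with their mean profile over the 9 arrays of WT, Ets1KO and Ets2KO, relative to array medians. These values describe arrays that fall into groups and carry no test. The 10 closest were Hmgcs1 (r = 0.96), Nfxl1 (0.95), Cyp51 (0.95), Msmo1 (0.95), Idi1 (0.94), Lss (0.94), Scd2 (0.93), Ttc23 (0.93), Helz2 (0.93) and Cops2 (0.92). Hmgcs1, Cyp51, Msmo1, Idi1 and Lss are cholesterol synthesis enzymes. Of the 50 closest among 11010 genes, 9 were among the 33 other sterol genes, whose median r was 0.47 against -0.02 for all genes. With the 2 DKO arrays added, Msmo1 had 0.83 and Cyp51 0.82, while Nfxl1 had 0.02 and Cops2 0.09. Stard4 alone was closest to Cyp51 (0.98), Fdps to Nfxl1 (0.99), Mvk to Galk2 (0.96), Insig1 to Rpl37 (0.97) and Dhcr7 to Pnpla6 (0.91). Within the 5 genes the highest correlations were Insig1 with Stard4 (0.94) and Fdps with Stard4 (0.94), and the lowest were Dhcr7 with Fdps (0.36) and with Stard4 (0.47).

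Other readouts moved with the groups. Of 16 endothelial markers 6 were measured with probe sets of their own, Cd34, Egfl7, Eng, Flt1, Kdr and Plvap; the defining genes Pecam1, Cdh5, Tek and Vwf had no probe set of their own in the table used here. Their mean relative to array medians was -1.03 to 0.30 in WT, -1.64 to -1.30 in Ets1KO, -0.61 to 0.25 in Ets2KO and -1.34 to -1.22 in DKO. The list mean lay above the array median in WT replicate 1 (0.30) and Ets2KO replicate 2 (0.25), and below it in all other arrays. Levels are not comparable between genes here, so the identity of the cells is not read from these means. The fibroblast list (6 of 6 measured) lay between -0.21 and 1.42 over all arrays, and the smooth muscle list (3 of 5) between -0.57 and 2.50. The pericyte list (4 of 5) read 1.06, 0.00095 and 1.92 in Ets2KO and -1.19 to 0.48 in WT and Ets1KO. The macrophage and leukocyte list (4 of 6) lay below the array median in all arrays, at -2.78 to -2.31 in Ets2KO and -2.23 to -1.61 in WT and Ets1KO, without overlap. Of 6 adipocyte markers, Adipoq and Fabp4 were measured, with a mean of -2.46, -2.71 and 2.36 in WT, -4.90, -3.30 and -3.71 in Ets1KO, 0.15, 3.29 and 4.02 in Ets2KO, and -0.996 and -3.67 in DKO. The adipocyte list was thus high in Ets2KO, where Fdps, Insig1 and Stard4 were low, and in WT replicate 3. In that WT array the tested probe sets of these genes read 11.03, 10.79 and 8.91 as deposited. The part of these lists in the result was not tested, and fewer cells of a type and less RNA per cell cannot be told apart in bulk samples.

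Cell cycle genes stood apart in 1 array. The mean of 11 cell cycle genes was -1.89 in Ets2KO replicate 3 and 1.15 to 2.66 in the 10 other arrays, relative to array medians. In that array Mvk, Insig1 and Dhcr7 read highest of the Ets2KO group, as did Fdps and the tested Stard4 probe set. The mean of the 18 synthesis genes was lower in each Ets2KO array than in any WT or Ets1KO array. Without Ets2KO replicate 3, the Fdps and Stard4 differences from Ets1KO were -1.86 and -1.89. What part the cell cycle genes had in the differences was not tested.

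**Figure D4:**
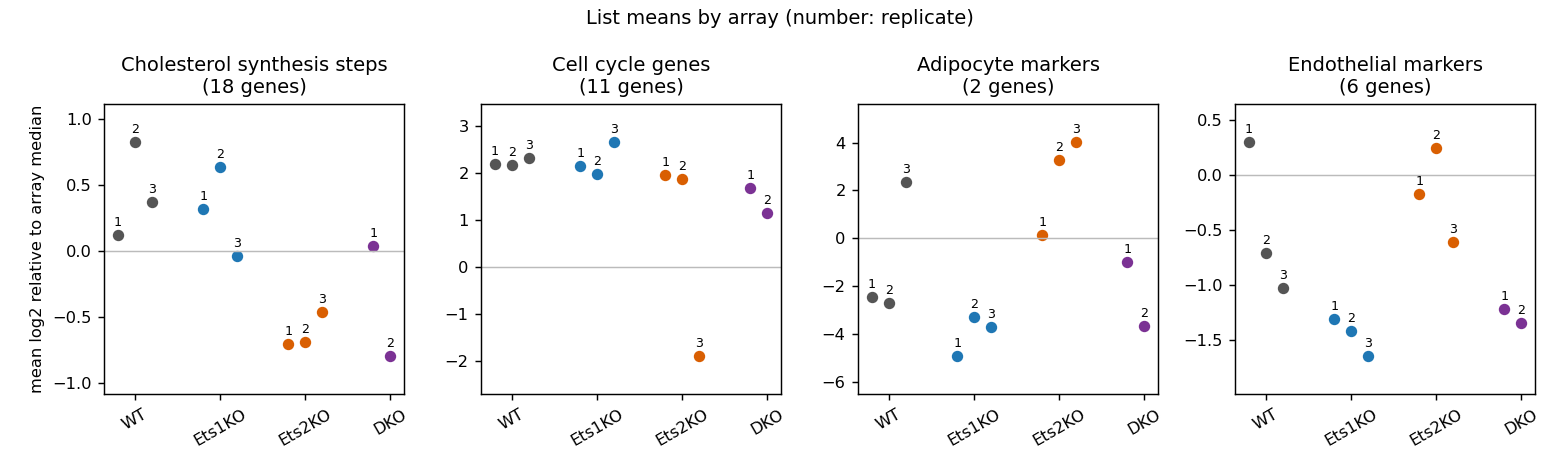
Mean log2 expression relative to the array median for 18 cholesterol synthesis genes, 11 cell cycle genes, 2 adipocyte markers and 6 endothelial markers, by array; numbers above the points are replicates. The synthesis genes are low in all 3 Ets2KO arrays, the cell cycle genes are low in Ets2KO replicate 3, and the adipocyte markers are high in Ets2KO and in WT replicate 3.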

How the data were processed

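Log2 expression values per probe set were used as deposited; the authors made them with RMA per the submitters' processing notes, with no RMA version named. RMA corrects background, normalizes between arrays and summarises probes, so levels are not comparable between genes. Of 20523 probe sets, 18824 were annotated by the platform table to 1 symbol, 549 to several and 1150 were unlisted. Each of 11015 genes was tested at its probe set with the highest mean over the 12 columns. Group means of 11 arrays were fitted with limma 3.58.1 (lmFit and eBayes) in R 4.3.3, with 7 residual degrees of freedom, and p-values were adjusted over all genes by Benjamini and Hochberg and called at adjusted p below 0.05. The planned rule was to take the probe set over the arrays used; taking it over 12 columns and centring on the median gene were chosen after the data were seen. The 5 genes and the gene lists were chosen with earlier results of these data known. Named were all 5 genes, up to 4 called genes per list and comparison or otherwise the 2 with the largest difference, and the genes most correlated with the 5. Groups follow titles and genotypes, although the short descriptions of the Ets1KO and Ets2KO samples read wild type. The fit was tested on simulated data, and figures were drawn with matplotlib 3.10.9 in Python 3.11.15. The number of arrays limits the precision.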

Additional observations from a re-analysis of the deposited data

How the results depend on the processing

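Most differences kept their direction, and the calls near the threshold moved with the settings. As deposited in place of relative to array medians, Mvk gave -1.61 and Stard4 -1.18 for DKO against Ets1KO, and Fdps -1.74, Mvk -1.06 and Stard4 0.59 for DKO against Ets2KO; all but the last were then called, and the last lost its call. The sterol counts were then 19 lower and 0 higher against Ets1KO, and 13 and 2 against Ets2KO. Over all genes these counts were 4677 and 191, and 4742 and 333. Relative to array medians Fdps gave -0.0077 for Ets1KO against WT. With all probe sets of each gene averaged, DKO against Ets1KO gave -1.12 for Dhcr7, -0.999 for Mvk and -1.10 for Stard4 with 7 sterol genes higher, and Stard4 gave 0.70 against Ets2KO. Mvk and Stard4 were then called against Ets1KO, and the calls of Dhcr7 there and of Stard4 against Ets2KO were lost. With medians over all probe sets Dhcr7 gave -1.10 and lost its call, and with the brightest probe set over 11 arrays Stard4 gave 0.51 for DKO against Ets2KO and 0.091 for Ets1KO against WT, the first no longer called; both settings were chosen after seeing the data. With all 12 columns Mvk gave -0.86 for DKO against Ets1KO and was called, with 7 sterol genes higher, and 9 were higher against Ets2KO. Among genes above the median mean, which left out Dhcr7, Mvk and Stard4 and so gave them no value, 1 sterol gene was lower in Ets2KO than in Ets1KO. With only the groups compared, 10 were, and Fdps was called at -1.75; Dhcr7 (-1.20 and -1.33, against Ets1KO and Ets2KO) and Insig1 (-1.92) lost their calls in DKO.

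With array weights, Ets2KO against Ets1KO gave -2.14 for Fdps, -2.16 for Insig1, -0.84 for Mvk, these 3 then called, and -0.22 for Dhcr7, with 18 sterol genes lower and 3 higher. Over all genes 1724 were then called lower and 1290 higher. Dhcr7 in DKO gave -1.34 and -1.20, against Ets1KO and Ets2KO, and Stard4 1.32 against Ets2KO, all no longer called. With sex as a covariate, whose effect is estimated within WT alone (replicate 1 against 2 and 3), Stard4 gave -0.99, no longer called, and 0 sterol genes were lower for Ets2KO against Ets1KO. DKO against Ets2KO then gave -2.003 for Dhcr7 and 0.60 for Stard4, neither called, with 0 sterol genes lower and 1 higher. Ets1KO against WT gave -0.14 for Fdps and -0.26 for Insig1, and Ets2KO against WT gave 0.10 for Dhcr7 and -1.43 for Stard4. Comparison with WT arrays of the same sex reading gives the same values by construction, since each other group reads as a single sex. Besides these settings, the replicate block and single arrays left out, no setting run ended a call of these genes.

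The replicate numbers were not treated as pairs in the main fit. Correlations of same-numbered arrays ranged from -0.32 to 0.10. The lowest, of Ets1KO and DKO replicate 1, is mirrored at 0.32 with DKO replicate 2, since DKO has 2 arrays. These values therefore cannot decide whether the samples were paired. With a replicate block, Stard4 gave -1.77 (adjusted p = 0.0632) and 1 sterol gene was lower for Ets2KO against Ets1KO. In DKO against Ets1KO the replicate block gave -1.17 for Dhcr7 and -1.90 for Insig1, and against Ets2KO -1.30 for Dhcr7 and 1.23 for Stard4, all no longer called.

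Leaving out 1 array at a time, Ets1KO against WT gave -0.34 to 0.32 for Fdps, -0.26 to 0.55 for Insig1, -0.26 to 0.15 for Mvk and -0.44 to 0.11 for Stard4. Ets2KO against Ets1KO gave -1.94 to -1.38 for Fdps, -0.20 to 0.29 for Dhcr7 and -2.06 to -1.61 for Stard4, with 0 to 7 sterol genes lower. DKO against Ets1KO gave -2.42 to -1.67 for Insig1 and -1.51 to -0.88 for Dhcr7, with 5 to 9 lower and 2 to 5 higher. DKO against Ets2KO gave -1.97 to -0.11 for Fdps, -0.53 to 0.11 for Insig1, -1.65 to -1.01 for Dhcr7 and 1.07 to 1.504 for Stard4, with 4 to 9 higher. Where these values changed a call or a sign, the cause was not tested, beyond the fewer arrays or genes that a setting holds.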
